A study of Rattus norvegicus with 29 samples.

Results

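The enzymes of fatty acid oxidation are described here across 6 groups of rats, in RNA of peripheral blood mononuclear cells, a fraction made up of lymphocytes and monocytes. The members are 31 genes of fatty acid activation, mitochondrial and peroxisomal oxidation, electron transfer and acyl-CoA thioesterases, found by name or older name among the probes of an Agilent rat array. The transporters of the carnitine shuttle are no members. The 31 are among 35672 gene names on the array and have 44 of the 41012 probes on the array, and 43 of these, for 30 genes, were well above background in the Cy5 channel on at least 4 of the 29 arrays. The tested members are among 24269 gene names and 28242 probes. The gene left out is Acsl6, a long-chain acyl-CoA synthetase, whose probe was well above background on 0 of 29 arrays. The members nearest to the limit were Ehhadh, well above background on 12 arrays, and Acox3, on 18 arrays.

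Fatty acids enter oxidation as acyl-CoA thioesters, made by acyl-CoA synthetases. Mitochondria shorten them by repeated rounds of dehydrogenation, hydration, a further dehydrogenation and thiolysis, with electrons passed to the respiratory chain through the electron transfer flavoprotein, while peroxisomes start the breakdown of very long and branched chains. In liver and muscle, fasting raises many of these genes through the nuclear receptor PPAR-alpha. Blood mononuclear cells are easily sampled, and the study compared their RNA between diets and feeding conditions.

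All animals were male Wistar rats aged 6 months, with 1 rat per array. Standard chow alone was the control diet, and for 4 months the cafeteria groups had fat-rich cafeteria foods in addition, which makes rats obese. Fed rats ate freely, fasted rats had no food for 14 h, and refed rats had food again for 6 h after such a fast. Each group had 5 rats except control fed, which had 4, because the submitters left out 1 control sample with too little RNA. Rats are named by their number in the labels. Each array held the rat's RNA in Cy5 beside a pooled reference in Cy3, so a value is a log2 ratio of the rat to the pool and says nothing of the level of one gene against another.

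Of the markers of T cells, which make up much of this fraction, 15 of 16 were measured, as were 8 of 13 for B cells, 12 of 13 for natural killer cells and 12 of 15 for monocytes. Markers of blood cells other than lymphocytes and monocytes were measured too, with 12 of 23 for platelets, 12 of 15 for neutrophils and 10 of 17 for erythroid cells. Median Cy5 signals of the arrays ran from 103.2 to 154.2 units, and 53.3% to 66.7% of spots were well above background. The arrays lay on 8 slides, and their images were extracted in 2 runs, of 14 and 15 arrays. Run 1 held 2 of 4 control fed, 4 of 5 control fasted, 2 of 5 control refed, 4 of 5 cafeteria fed, 1 of 5 cafeteria fasted and 1 of 5 cafeteria refed arrays, so the run went largely with the group where cafeteria fed rats are compared with cafeteria fasted or refed rats, and where the diets are compared in fasted rats. In these bulk samples, fewer cells of a type and less RNA per cell cannot be told apart.

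Over the 12 comparisons of the design, 2 of 360 tests of a member gene passed an adjusted p of 0.05 by limma with Benjamini-Hochberg adjustment over all 28242 probes, each gene being taken by its brightest probe. Both were rises on refeeding in control rats, of Acsl3 and Amacr, in a comparison where 9.01% of all probes passed. In each of the other comparisons of the design, between 0% and 3.91% of all probes passed, so few calls were made on the whole array there. Acsl3 is a long-chain acyl-CoA synthetase found at the endoplasmic reticulum and lipid droplets. Amacr, alpha-methylacyl-CoA racemase, turns branched acyl-CoAs into the form that peroxisomal oxidation accepts. No enzyme of the mitochondrial spiral was among them. In the 9 comparisons of 2 groups, the 95% interval of the change lay within 0.5 either way on the log2 scale in 248 of 270 cases and within 1 in 270 of 270.

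The promoter sequences of 4 members are shown because these genes carry the results. Acsl3 and Amacr are the called genes, Acsl1 has the largest spread between rats, and Hadha the smallest, each by its brightest probe. Each is the RefSeq sequence of the GRCr8 assembly, from 250 bases before to 50 bases after the gene's annotated start, 5′ to 3′ on the gene's strand. Whether RNA starts there in these cells was not tested, so a window, that of Acsl1 included, may not be the promoter in use. Capitals mark every GGGCGG on either strand, and likewise every CCAAT and every AGGTCA. The Acsl3 window is chr9:87563351-87563650 on the plus strand, the Amacr window chr2:61673085-61673384 on the plus strand, the Acsl1 window chr16:52532343-52532642 on the minus strand and the Hadha window chr6:31907551-31907850 on the plus strand.
Acsl3: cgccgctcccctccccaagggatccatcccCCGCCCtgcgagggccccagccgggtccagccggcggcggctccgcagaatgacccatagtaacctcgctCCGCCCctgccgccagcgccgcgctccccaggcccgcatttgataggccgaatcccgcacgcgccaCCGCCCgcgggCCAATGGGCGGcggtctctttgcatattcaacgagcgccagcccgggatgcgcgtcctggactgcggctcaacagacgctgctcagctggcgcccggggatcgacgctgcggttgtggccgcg
Amacr: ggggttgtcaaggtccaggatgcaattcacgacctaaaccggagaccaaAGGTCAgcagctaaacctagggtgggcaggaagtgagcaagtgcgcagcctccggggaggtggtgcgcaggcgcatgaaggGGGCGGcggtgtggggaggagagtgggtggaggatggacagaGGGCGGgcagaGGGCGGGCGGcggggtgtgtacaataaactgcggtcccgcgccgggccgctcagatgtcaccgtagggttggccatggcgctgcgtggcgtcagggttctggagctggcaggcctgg
Acsl1: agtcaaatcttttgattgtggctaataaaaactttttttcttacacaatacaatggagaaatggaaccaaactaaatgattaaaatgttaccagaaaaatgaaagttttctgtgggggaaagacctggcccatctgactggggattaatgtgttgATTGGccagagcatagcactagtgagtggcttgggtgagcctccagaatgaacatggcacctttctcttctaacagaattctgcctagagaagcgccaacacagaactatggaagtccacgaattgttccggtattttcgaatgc
Hadha: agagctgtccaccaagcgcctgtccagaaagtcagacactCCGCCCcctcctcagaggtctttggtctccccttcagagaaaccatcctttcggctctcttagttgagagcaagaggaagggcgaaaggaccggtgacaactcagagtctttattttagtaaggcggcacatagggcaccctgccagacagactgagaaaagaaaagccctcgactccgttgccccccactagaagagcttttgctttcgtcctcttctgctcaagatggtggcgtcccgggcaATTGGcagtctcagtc

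The Acsl3 window held GGGCGG at 4 places and CCAAT once and was 72.7% G and C, and the Amacr window held GGGCGG at 4 places, some overlapping, and AGGTCA once and was 66.0% G and C. The Acsl1 window held CCAAT once and was 40.7% G and C. The Hadha window held GGGCGG once and CCAAT once, and shares 200 bases, on the opposite strand, with that of Hadhb, which encodes the other subunit of the mitochondrial trifunctional protein. Promoters were matched for 27 of the 30 genes, and 7 motifs were searched on both strands. GGGCGG, the core of a GC box, was present in 20 of the 27 windows (74.1%) against 33.1% of all 33469 promoters of 300 bases, and the median G and C content was 60.0% against 51.7%. AGGTCA, the 6-base element of many nuclear receptors, was present in 8 windows (29.6%) against 16.2% of all promoters, in Acadvl, Acot8, Amacr, Echs1, Eci1, Eci2, Hadhb and Hsd17b4. AGGTCANAGGTCA, an exact form of the paired site that PPARs bind and that holds AGGTCA within it, was present in 0 of 27 windows and in 0.0538% of all. TCAAGGTCA, which also holds AGGTCA, was present in 0 windows against 0.433%, GCGCATGCGC in 0 against 0.852%, CCAAT in 12 (44.4%) against 37.5%, and TCACNCCAC, a form of the sterol regulatory element, in 1, that of Ehhadh, against 1.12%. These are counts of letters in short windows, and were not tested.

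**Figure D1:**
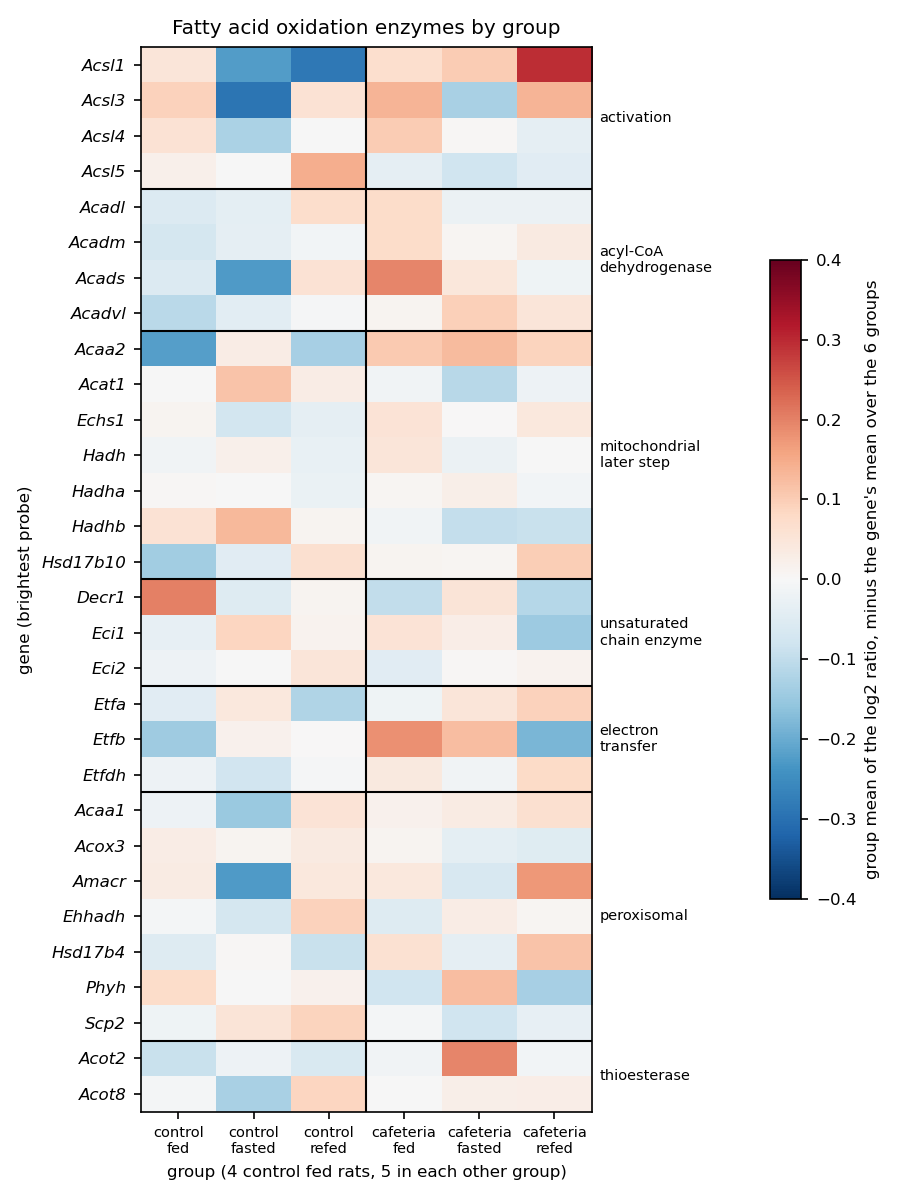
Mean log2 ratio of each of the 30 genes (rows, by role) in the 6 groups (columns), after subtracting the gene's mean over the 6 group means; colour runs from -0.4 (blue) to 0.4 (red) on the log2 scale, with 4 control fed rats and 5 rats in each other group. Acsl3 and Amacr have their lowest means in control fasted rats, Acsl1 goes from lowest in control refed to highest in cafeteria refed rats, and Hadha is nearly white throughout.

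Among the enzymes of activation, the log2 ratio of Acsl3 (probe at chr9:78106570-78106629, rn4) was -0.0094, 0.028, 0.41 and 0.054 in control fed rats 1, 4, 7 and 13. It was -0.24, -0.27, -0.38, -0.12 and -0.32 in control fasted rats 2, 5, 8, 11 and 14. It was 0.12, 0.069, 0.29, -0.079 and 0.037 in control refed rats 3, 6, 9, 12 and 15. The 5 control fasted rats lay below every control fed and every control refed rat, and fed rat 7 stood above the other fed rats. In cafeteria rats the values were 0.40, 0.088, 0.094, 0.062 and 0.17 in fed rats 1, 4, 7, 10 and 13. They were 0.13, -0.13, -0.14, -0.17 and -0.19 in fasted rats 2, 5, 8, 11 and 14 and 0.11, 0.037, 0.28, 0.17 and 0.23 in refed rats 3, 6, 9, 12 and 15. Cafeteria fasted rat 2 lay among the fed and refed rats, and the other 4 fasted rats lay below all of them.

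Acsl3 was 0.35 ± 0.082 higher on the log2 scale (standard error) in control refed than in control fasted rats, a 1.28-fold rise with a 95% interval of 0.18 to 0.52 (adjusted p = 0.00669, limma), and 5 of 5 refed rats lay above the mean of the fasted rats. The change was 0.26 ± 0.082 in cafeteria rats (adjusted p = 0.114, limma). Fasted against fed, it was -0.39 ± 0.087 in control rats (adjusted p = 0.0637, limma) and -0.26 ± 0.082 in cafeteria rats (adjusted p = 0.150, limma), which share their fasted rats with the refeeding comparisons. Averaged over both diets, in comparisons added after the data were seen, Acsl3 fell by 0.32 ± 0.060 on fasting (adjusted p = 0.00235, limma) and rose by 0.31 ± 0.058 on refeeding (adjusted p = 0.000991, limma). With median centring these calls were lost. The adjusted p was 0.687 for refeeding in control rats and 0.647 and 0.181 for the averaged fasting and refeeding changes (limma). The sizes were 0.32, -0.30 and 0.37 in that order. Calls fell over the whole array too, to 3.26%, 0.0248% and 3.45% of all probes, against 9.01%, 3.91% and 13.2% without median centring. Within image extraction run 1, the refeeding change in control rats was 0.35 (2 refed against 4 fasted rats), and within run 2 it was 0.40 (3 refed rats against 1 fasted rat). With the mean of the platelet markers as a covariate it was 0.29 with an adjusted p of 0.232 (limma), and averaged over diets 0.27 with an adjusted p of 0.0631 (limma). Over its 20 alternatives the adjusted p of the control change ran from 0.00334 to 0.687 (limma). Without cafeteria fasted rat 2 the change in cafeteria rats was 0.32 with an adjusted p of 0.0438 (limma). That was the lowest adjusted p over the 20 alternatives of the cafeteria change, and the highest was 0.8 (limma).

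**Figure D2:**
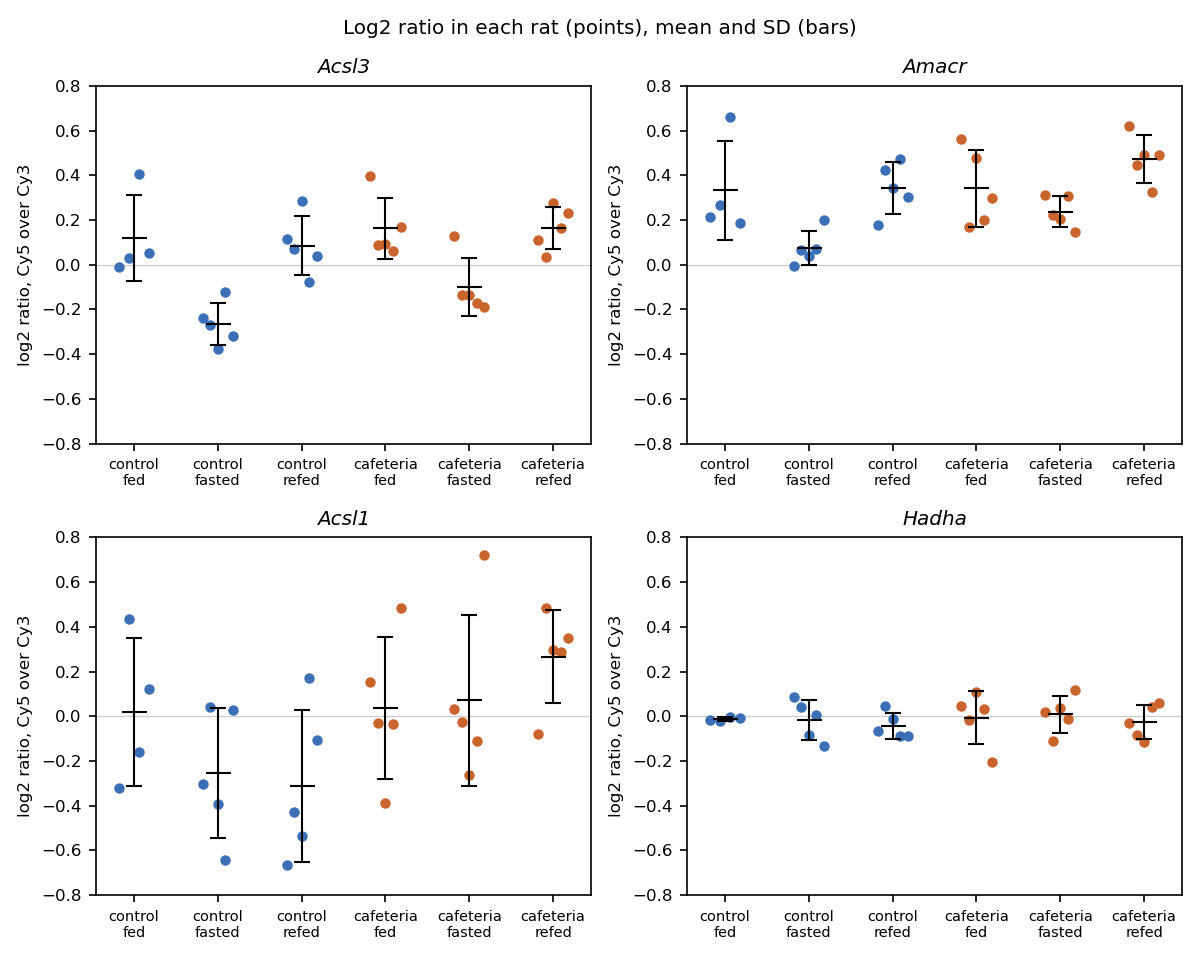
Log2 ratio of Cy5 over Cy3 (vertical axis, same scale in the 4 panels) in every rat for Acsl3, Amacr, Acsl1 and Hadha in the 6 groups (horizontal axis); points are rats, the horizontal mark is the group mean and the bar its SD. The 5 control fasted rats of Acsl3 lie between -0.38 and -0.12, below the other control rats, whereas the rats of Acsl1 spread from -0.67 to 0.72 and those of Hadha from -0.20 to 0.12.

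Acsl1, the main synthetase of liver, muscle and fat, varied most between rats of the same group, with a pooled within-group SD of 0.32. Its log2 ratio (brightest of 4 probes, chr16:49036985-49037044, rn4) was -0.32, 0.43, -0.16 and 0.12 in control fed, -0.30, 0.04, -0.39, -0.65 and 0.029 in control fasted and -0.67, -0.43, -0.53, 0.17 and -0.11 in control refed rats, in order of rat number. It was 0.15, -0.032, -0.39, -0.036 and 0.49 in cafeteria fed, 0.031, -0.024, -0.26, -0.11 and 0.72 in cafeteria fasted and -0.081, 0.48, 0.30, 0.29 and 0.35 in cafeteria refed rats. The groups overlapped in every comparison, and 4 of the 5 cafeteria refed rats lay above all 5 control refed rats. Cafeteria refed exceeded control refed rats by 0.58 ± 0.19, with a 95% interval of 0.19 to 0.97 that did not pass the adjustment (adjusted p = 0.225, limma). The other 3 probes of Acsl1 gave 0.040, 0.13 and 0.16 there, so the size rests on 1 probe. Averaged over feeding states the difference between diets was 0.31 ± 0.11 (adjusted p = 0.138, limma), while the other 3 probes of Acsl1 gave 0.019, 0.066 and 0.12. The difference passed with the Cy5 signal alone (0.39, adjusted p = 0.0322, limma) and with the mean of the platelet markers as a covariate (0.40, adjusted p = 0.0125, limma). Its adjusted p ran from 0.0125 to 0.361 over 40 alternatives (limma).

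Across the 29 rats, Acsl1 went with the mean of the 12 neutrophil markers measured (Pearson r = 0.485, permutation p = 0.00736, Spearman rho = 0.544, permutation p = 0.00277, adjusted over 5 relations 0.0092 and 0.00462). These permutations, like those for monocytes below, ignored the groups, so differences between groups enter the p-values. Acsl1 was taken by its brightest probe alone. Pearson r was 0.542 without the 2 rats farthest from the median of the neutrophil mean, 0.365 within run 1, 0.495 within run 2 and 0.362 after subtracting each group's mean. With the mean of the 12 monocyte markers r was 0.233 (permutation p = 0.225, rho = 0.26, permutation p = 0.173), 0.231 without the 2 farthest rats, 0.0832 within run 1, 0.233 within run 2 and 0.0981 after subtracting each group's mean. The neutrophil mean lay between -0.36 and 0.66 in cafeteria refed and between -0.57 and 0.10 in control refed rats. Of its 12 markers only 1, Camp, was called between diets averaged over feeding states, higher in cafeteria rats, where 3.91% of all probes passed. The part of neutrophils in the Acsl1 difference was not tested.

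Acsl4 prefers arachidonic acid, and its probes went apart. By the brightest probe (chrX:36231647-36231706, rn4), the lowest group mean was -0.054 ± 0.095, in control fasted rats, and the highest 0.17 ± 0.20, in cafeteria fed rats (SD, n = 5 each). By the dimmer probe (chrX:36229413-36229472, rn4) all 5 cafeteria refed rats lay between -0.21 and -0.11, below each of the other 24 rats but 1, the lowest cafeteria fed rat at -0.14. That probe fell by 0.27 ± 0.062 from cafeteria fasted to cafeteria refed rats (adjusted p = 0.0223, limma), and the brightest gave -0.043. Averaged over feeding states its difference between diets was -0.14 ± 0.036 (adjusted p = 0.0219, limma), and the brightest probe had the opposite sign, at 0.048. Acsl5, a mitochondrial and reticular synthetase, differed by -0.11 ± 0.039 between diets averaged over feeding states (adjusted p = 0.133, limma), and passed without control fed rat 7 (-0.13, adjusted p = 0.0343, limma) or without cafeteria refed rat 6 (-0.13, adjusted p = 0.0483, limma). Over the 40 alternatives of this Acsl5 difference the adjusted p ran from 0.0343 to 0.974 (limma).

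The acyl-CoA dehydrogenases make the first oxidation of each round, Acadvl for very long, Acadl for long, Acadm for medium and Acads for short chains. The log2 ratio of Acadm (chr2:251867002-251867061, rn4) was -0.039, -0.099, -0.32 and -0.059 in control fed, -0.12, -0.013, -0.17, -0.11 and -0.057 in control fasted and -0.081, 0.014, -0.017, -0.21 and -0.048 in control refed rats. In cafeteria rats it was 0.36, -0.19, -0.052, -0.056 and 0.022 (fed), -0.10, 0.044, 0.016, -0.05 and -0.16 (fasted) and -0.01, 0.069, -0.11, -0.055 and -0.013 (refed). All 6 groups overlapped, and cafeteria fed rat 1 was the highest of the 29. Fasted against fed, Acadm differed by 0.035 in control rats (95% interval -0.13 to 0.19) and by -0.066 in cafeteria rats (95% interval -0.22 to 0.085).

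Acadvl (brightest of 2 probes, chr10:56856347-56856406, rn4) was -0.11, -0.083, 0.097 and -0.068 in control fed, 0.15, 0.12, 0.034, -0.064 and -0.11 in control fasted and -0.041, 0.21, 0.074, 0.032 and 0.039 in control refed rats. It was 0.28, -0.0009, 0.052, 0.10 and -0.042 in cafeteria fed, 0.075, 0.19, 0.0081, 0.32 and 0.21 in cafeteria fasted and -0.057, 0.18, 0.022, 0.17 and 0.27 in cafeteria refed rats. Cafeteria rats tended to the higher values, with overlap in each feeding state. The difference between diets averaged over feeding states was 0.10 ± 0.043 (95% interval 0.014 to 0.19, adjusted p = 0.225, limma), 0.083 by the other probe, and it passed in the authors' deposited table (0.20, adjusted p = 0.0346, limma). Across its 40 alternatives the adjusted p ran from 0.0346 to 0.644 (limma). Acads had the widest spread of the 4, with a within-group SD of 0.25 and group means from -0.20 ± 0.29 (SD, n = 5) in control fasted to 0.22 ± 0.061 (SD, n = 5) in cafeteria fed rats. Over the 9 comparisons of 2 groups, the largest difference of a dehydrogenase was 0.29, that of Acads between control refed and control fasted rats, and the smallest adjusted p of the 4 genes was 0.279 (limma).

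Of the later mitochondrial steps, Hadha and Hadhb form the trifunctional protein for long chains, Echs1 hydrates and Hadh dehydrogenates shorter ones, Acaa2 is the thiolase, and Acat1 and Hsd17b10 also serve the breakdown of isoleucine. Hadha (brightest of 3 probes, at 468441-468500 of chr6_random, rn4) varied least of all 30 genes by this probe, with a within-group SD of 0.082 and 6 group means within 0.052. Its log2 ratio was -0.016, -0.021, -0.0024 and -0.0064 in control fed, 0.087, 0.042, -0.082, 0.0069 and -0.13 in control fasted and -0.067, 0.048, -0.014, -0.09 and -0.09 in control refed rats. It was 0.047, -0.018, 0.11, 0.033 and -0.20 in cafeteria fed, 0.02, -0.11, 0.035, -0.014 and 0.12 in cafeteria fasted and -0.03, -0.085, -0.12, 0.043 and 0.058 in cafeteria refed rats. No group stood apart, and in the 9 comparisons of 2 groups the farthest end of a 95% interval lay 0.152 from 0. The 3 probes of Hadha did not share a sign in any of the 12 comparisons, and averaged over feeding states the other two differed between diets by -0.090 and -0.097 (adjusted p = 0.314 and 0.325, limma), against 0.015 by the brightest. Acaa2 spread most in this role, with a within-group SD of 0.29 and group means from -0.36 ± 0.25 (SD, n = 4) in control fed to -0.013 ± 0.30 (SD, n = 5) in cafeteria fasted rats. The largest difference of the 7 genes in these 9 comparisons was 0.32, and their smallest adjusted p was 0.257 (limma).

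Eci1 and Eci2, isomerases, and Decr1, a reductase, prepare unsaturated chains. Decr1 had its highest mean in control fed rats, at 0.24 ± 0.16 (SD, n = 4), and its mean was -0.066 ± 0.19 (SD, n = 5) in cafeteria fed rats, a difference of -0.30 ± 0.13 (adjusted p = 0.967, limma), or -0.27 within extraction run 1 and -0.54 within run 2. Etfa and Etfb are the subunits of the electron transfer flavoprotein and Etfdh is its oxidoreductase. The mean of Etfb in control fed rats was -0.28 ± 0.059 (SD, n = 4), and in cafeteria rats it was 0.044 ± 0.47 when fed and -0.32 ± 0.17 when refed (SD, n = 5 each). Its spread in cafeteria fed rats, from -0.39 to 0.79, covered all other groups but the lowest refed rats, and the largest difference, -0.37 ± 0.15 between cafeteria refed and fed rats, did not pass (adjusted p = 1.00, limma). It was -0.29 within extraction run 1 (1 refed against 4 fed rats) and 0.023 within run 2 (4 against 1). Between cafeteria fed and control fed rats Etfb differed by 0.33, with 0.44 within run 1 and -0.11 within run 2.

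Among the peroxisomal enzymes, Amacr (brightest of 2 probes, chr2:60344148-60344207, rn4) was 0.21, 0.27, 0.66 and 0.19 in control fed, -0.005, 0.068, 0.04, 0.071 and 0.20 in control fasted and 0.18, 0.42, 0.34, 0.48 and 0.30 in control refed rats. It was 0.56, 0.17, 0.48, 0.20 and 0.30 in cafeteria fed, 0.31, 0.22, 0.20, 0.31 and 0.15 in cafeteria fasted and 0.62, 0.45, 0.49, 0.32 and 0.49 in cafeteria refed rats. Control fasted rats were the lowest group, with only rat 14 reaching the lowest fed and refed rats, and the 5 cafeteria refed rats lay above the 5 cafeteria fasted rats. Amacr was 0.27 ± 0.083 higher in control refed than in control fasted rats, a 1.21-fold rise with a 95% interval of 0.099 to 0.44 (adjusted p = 0.0397, limma), with 5 of 5 refed rats above the fasted mean. Its dimmer probe gave 0.059 ± 0.064 in the same comparison (adjusted p = 0.651, limma). In cafeteria rats the change was 0.24 ± 0.083 (adjusted p = 0.181, limma), and averaged over both diets Amacr rose by 0.25 ± 0.059 (adjusted p = 0.00435, limma), a call lost with median centring (0.28, adjusted p = 0.477, limma) and with the mean of the platelet markers in the fit (0.14, adjusted p = 0.332, limma). Of all probes, 13.2% passed in that averaged comparison, 3.45% with median centring and 3.25% with the platelet markers in the fit. The control change was 0.26 within run 1 and 0.18 within run 2, and 0.26 with the run as a block (adjusted p = 0.0680, limma). It also lost the call with median centring (0.19, adjusted p = 0.957, limma), with the slide as a block (0.24, adjusted p = 0.137, limma), with Cy5 alone (0.25, adjusted p = 0.135, limma), and without any 1 of control fasted rats 2, 5, 8 and 11 or control refed rats 6, 9, 12 and 15 (0.24 to 0.28).

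Markers of platelets moved with these rises. The mean log2 ratio of the 12 platelet markers measured, out of 23 listed, ranged from 0.26 to 0.56 in control fasted and from -1.18 to -0.36 in control refed rats, and 11 of the 12 genes fell between these groups, with a median change of -1.3. Pf4 and Ppbp, which define platelets, were not among the markers measured. Platelet markers were not the only ones called between these groups, where 9.01% of all probes passed. Of 10 erythroid markers measured, those called were Epor (-0.37, adjusted p = 0.00230, limma) and Ermap (-0.22, adjusted p = 0.0457, limma). Of 6 adipocyte and liver markers, Ttr (-0.91, adjusted p = 0.00158, limma) and Serpina1 (-0.19, adjusted p = 0.0326, limma) were called. Their part in the rises was not tested. Across the 29 rats, the platelet mean went against Amacr (r = -0.638, permutation p = 0.00023, rho = -0.639, permutation p = 0.00028) and against Acsl3 (r = -0.498, permutation p = 0.00645, rho = -0.524, permutation p = 0.00384), with p-values adjusted over 5 relations between 0.000575 and 0.0092. Without the 2 rats farthest from the platelet median, r was -0.607 for Amacr and -0.551 for Acsl3. It was -0.829 and -0.630 within run 1, and -0.363 and -0.364 within run 2. After subtracting each group's mean it was -0.433 for Amacr and -0.158 for Acsl3. The permutation p-values are over all 29 rats without regard to group, and both genes had been called between groups. Acsl3 and Amacr went together (r = 0.732, rho = 0.704, with permutation p = 1e-05, the smallest the permutations can give, and 6e-05), with r = 0.712 without the 2 farthest rats, 0.780 within run 1, 0.679 within run 2 and 0.453 after subtracting each group's mean. With the platelet mean as a covariate, the Amacr change in control rats was 0.098 (adjusted p = 0.721, limma), and 6 of the 28242 probes passed in that comparison. The part of platelets in the results for Acsl3 and Amacr was not otherwise tested.

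Ehhadh, the bifunctional enzyme and a classic PPAR-alpha target in liver, was dim (chr11:81506762-81506821, rn4), well above background on 2 of 4 control fed, 1 of 5 control fasted, 4 of 5 control refed, 1 of 5 cafeteria fed, 1 of 5 cafeteria fasted and 3 of 5 cafeteria refed arrays. Its log2 ratio was -0.096, 0.0044, 0.14 and 0.028 in control fed, -0.29, -0.037, 0.11, -0.01 and 0.0094 in control fasted and 0.076, 0.0073, 0.28, 0.23 and 0.01 in control refed rats. It was 0.15, 0.012, -0.075, -0.15 and -0.071 in cafeteria fed, 0.01, 0.11, 0.14, 0.11 and -0.083 in cafeteria fasted and 0.20, 0.11, -0.0077, -0.046 and -0.085 in cafeteria refed rats. All groups overlapped, and fasted differed from fed rats by -0.061 (95% interval -0.22 to 0.10) under the control diet and by 0.084 (95% interval -0.07 to 0.24) under the cafeteria diet. For Acaa1, the peroxisomal thiolase, the control fasted mean was -0.11 ± 0.038 and the control refed mean 0.09 ± 0.10 (SD, n = 5 each), a difference of 0.20 ± 0.072 (adjusted p = 0.0768, limma). Its accession now names Acaa1a, whose near-identical copy Acaa1b the probe could share, so its values are uncertain. Phyh, which starts the oxidation of phytanic acid, was -0.026 ± 0.16 in cafeteria fed, 0.18 ± 0.17 in cafeteria fasted and -0.08 ± 0.14 in cafeteria refed rats (SD, n = 5 each). Hsd17b4, the multifunctional enzyme of branched chains, was -0.078 ± 0.091 in control refed and 0.13 ± 0.09 in cafeteria refed rats (SD, n = 5 each). Cafeteria refed rat 12 alone lay among the control refed rats, and the difference did not pass (adjusted p = 0.323, limma). Acox3 and Scp2, an oxidase and a thiolase of branched chains, differed by at most 0.082 and 0.13 in any comparison of 2 groups.

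Of the thioesterases, which release free fatty acids from acyl-CoA, mitochondrial Acot2 was highest in cafeteria fasted rats, at 0.39 ± 0.14 against 0.17 ± 0.054 in control fasted rats (SD, n = 5 each) and 0.18 ± 0.17 in cafeteria fed rats (SD, n = 4), where 1 outlier spot was left out. Against control fasted rats the difference was 0.22 ± 0.091 (adjusted p = 0.257, limma). Against cafeteria fed rats it was 0.21 ± 0.097 (adjusted p = 0.444, limma), but -0.22 in the authors' deposited table, -0.0019 within extraction run 1 (1 fasted against 3 fed rats) and 0.49 within run 2 (4 against 1). Acot2 has near-identical relatives, and its probe could bind their RNA. Peroxisomal Acot8 was -0.075 ± 0.13 in control fasted and 0.14 ± 0.14 in control refed rats (SD, n = 5 each), with an adjusted p of 0.129 (limma).

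**Figure D3:**
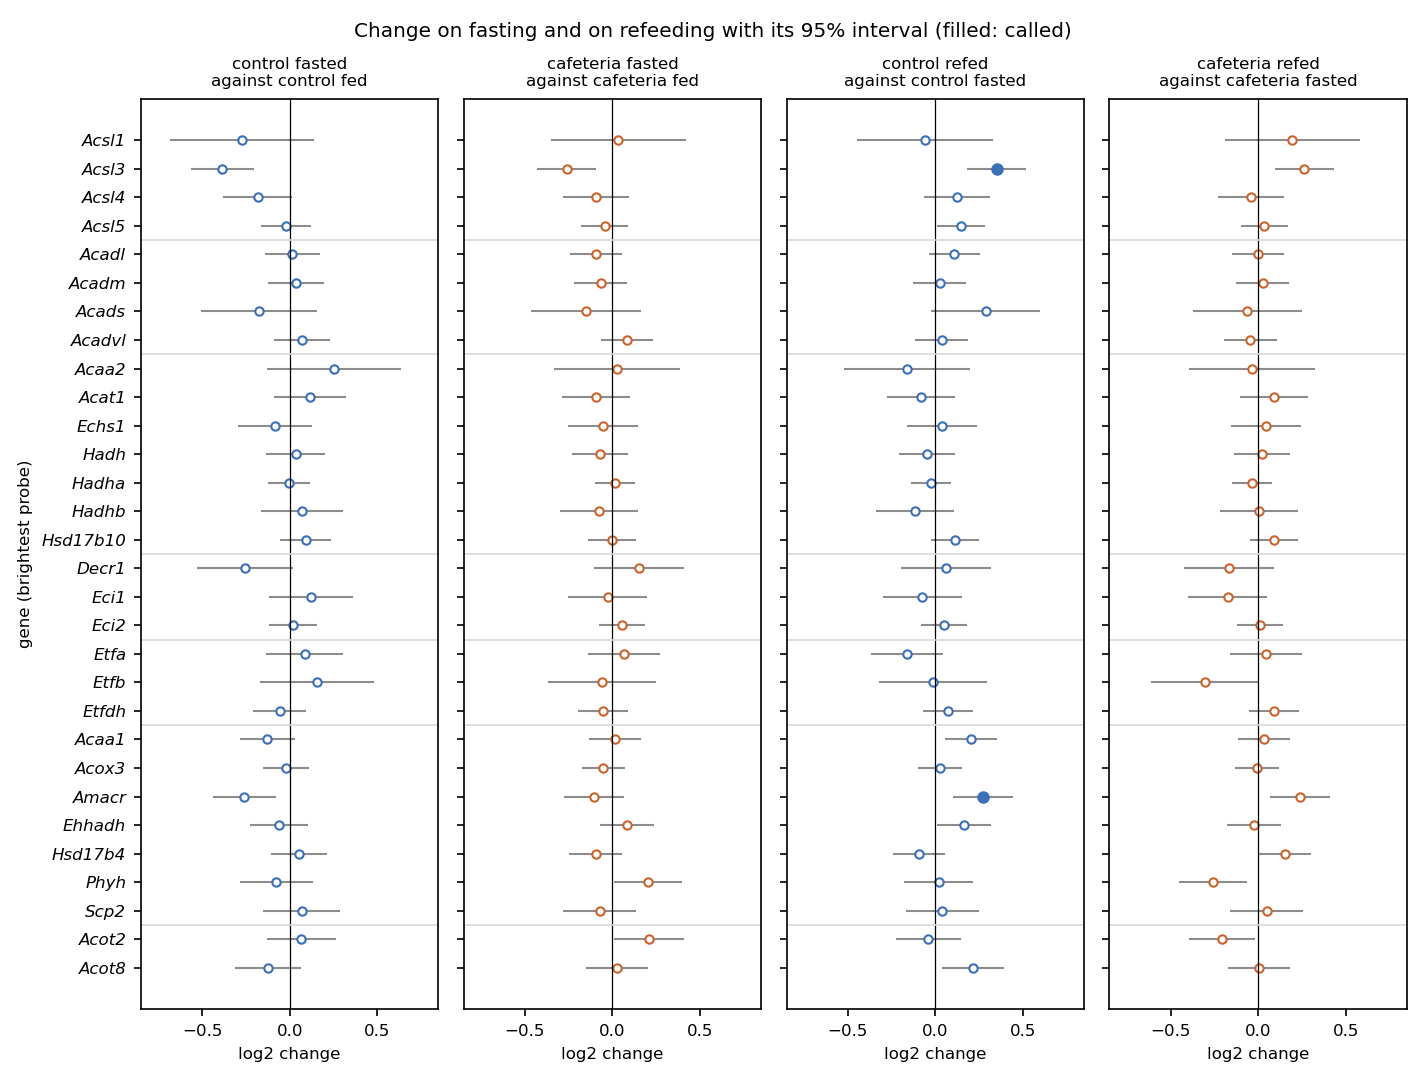
Difference on the log2 scale (horizontal axis) with its 95% interval for each of the 30 genes (vertical axis, grouped by role) on fasting and on refeeding in each diet; filled points passed an adjusted p of 0.05 by limma and open points did not. Filled points appear in 1 panel, control refed against control fasted, for Acsl3 and Amacr, and most other intervals cross 0.

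A fast was compared with free feeding for the set as a whole. In control rats, 0 of 30 genes passed on fasting by limma, where 0.0814% of all probes did, and 2 of 30 (6.67%) had an unadjusted p under 0.05 against 11.5% of all probes. The median difference over the members was 0.0054, as over all probes at 0.0057, and single genes ran from -0.39 to 0.25. Acsl3, Amacr (-0.26 ± 0.088, adjusted p = 0.227, limma) and Decr1 (-0.25 ± 0.13, adjusted p = 0.476, limma; -0.37 within extraction run 1 and 0.069 within run 2) had the smallest p. The 95% interval lay within 0.5 either way for 25 of the 30 genes. In cafeteria rats 0 of 30 passed, against 0.821% of all probes, and 3 (10%) had an unadjusted p under 0.05 against 10.4%. The members' median was -0.048 and all 30 intervals lay within 0.5, with Acsl3, Acot2 and Phyh (0.20 ± 0.095, adjusted p = 0.447, limma) nearest to passing. Averaged over both diets 1 of 30 genes fell, Acsl3, where 2.11% of all probes fell and 3.91% passed.

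On refeeding, 2 of 30 genes rose and 0 fell in control rats, or 6.67% against 9.01% of all probes that passed and 3.07% that rose. The members' median was 0.037, with a range from -0.16 to 0.35, and 6 of 30 (20%) had an unadjusted p under 0.05 against 21.9% of all probes. The share of members is thus near that of all probes. Of the 27 genes measured in the authors' deposited table, 4 (14.8%) passed there, against 22.0% of all its probes tested, while 0 of 30 did with median centring, against 3.26%. In cafeteria rats 0 of 30 passed against 1.32% of all probes, and 5 (16.7%) had an unadjusted p under 0.05 against 13.1%; Acsl3, Amacr and Phyh (-0.26 ± 0.095, adjusted p = 0.206, limma) had the smallest. Without cafeteria fasted rat 2, 1 gene passed. Averaged over both diets 2 of 30 genes rose, against 5.69% of all probes that rose and 13.2% that passed.

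Refed against fed rats gave 0 of 30 genes in control rats and 0 of 30 in cafeteria rats, against 0% of all probes in each. A lack of calls does not show that 6 h of food restored the fed values. Single genes differed by -0.33 to 0.20 in control rats and by -0.37 to 0.23 in cafeteria rats. In each diet 1 gene had an unadjusted p under 0.05, where 5.68% of all probes did in control and 4.2% in cafeteria rats. These were Hsd17b10 in control rats (0.20 ± 0.072, adjusted p = 0.500, limma) and Etfb in cafeteria rats. For Acsl3, the control fed mean was 0.12 ± 0.19 (SD, n = 4), the control refed mean 0.086 ± 0.13 (SD, n = 5), and the cafeteria means 0.16 ± 0.14 fed and 0.16 ± 0.095 refed (SD, n = 5 each).

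The diets were compared in each feeding state. In fed rats 0 of 30 genes passed, against 0.00354% of all probes, and 3 (Decr1, Hsd17b10 and Etfb) had an unadjusted p under 0.05 against 4.87% of all probes. The 4 dehydrogenases had positive differences there, between 0.12 and 0.25, without passing, as did 22 of the 30 members and 53.9% of all probes. In refed rats the dehydrogenases ran from -0.092 to 0.055, with 2 of 4 positive. In fasted rats 0 of 30 passed, against 1.13%, and 4 had an unadjusted p under 0.05 against 15.2% of all probes, with Acaa1 (0.18 ± 0.072, adjusted p = 0.233, limma), Acat1 (-0.22 ± 0.095, adjusted p = 0.257, limma) and Acot2 foremost. In refed rats 0 of 30 passed, against 0.368%, and 4 had an unadjusted p under 0.05 against 8.43%, with Acsl1, Acsl5 (-0.19 ± 0.066, adjusted p = 0.280, limma, but 0.076 with median centring) and Hsd17b4 foremost.

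Averaged over feeding states, 0 of 30 genes passed by limma between diets, against 3.91% of all probes, while 8 of 30 (26.7%) had an unadjusted p under 0.05 against 15.7% of all probes. The members' median was 0.056 against 0.0069 over all probes, and 20 of 30 genes (66.7%) had a positive difference, as did 54.3% of all probes. With Cy5 alone, in the authors' deposited table and with the platelet mean as a covariate 1 gene passed each time, Acsl1, Acadvl and Acsl1 in that order, against 4.02%, 6.01% and 5.39% of all probes. The response to fasting differed between diets in 0 of 30 genes and the response to refeeding in 0 of 30 (interaction terms, limma), against 0% of all probes for each, with 1 and 2 genes at an unadjusted p under 0.05 where 3.21% and 7.44% of all probes had one. Decr1 came nearest for fasting (0.40 ± 0.18, adjusted p = 1.00, limma) and Hsd17b4 for refeeding (0.24 ± 0.10, adjusted p = 0.632, limma). The interval of an interaction was wide, within 0.5 either way for 25 and 23 of the 30 genes.

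**Figure D4:**
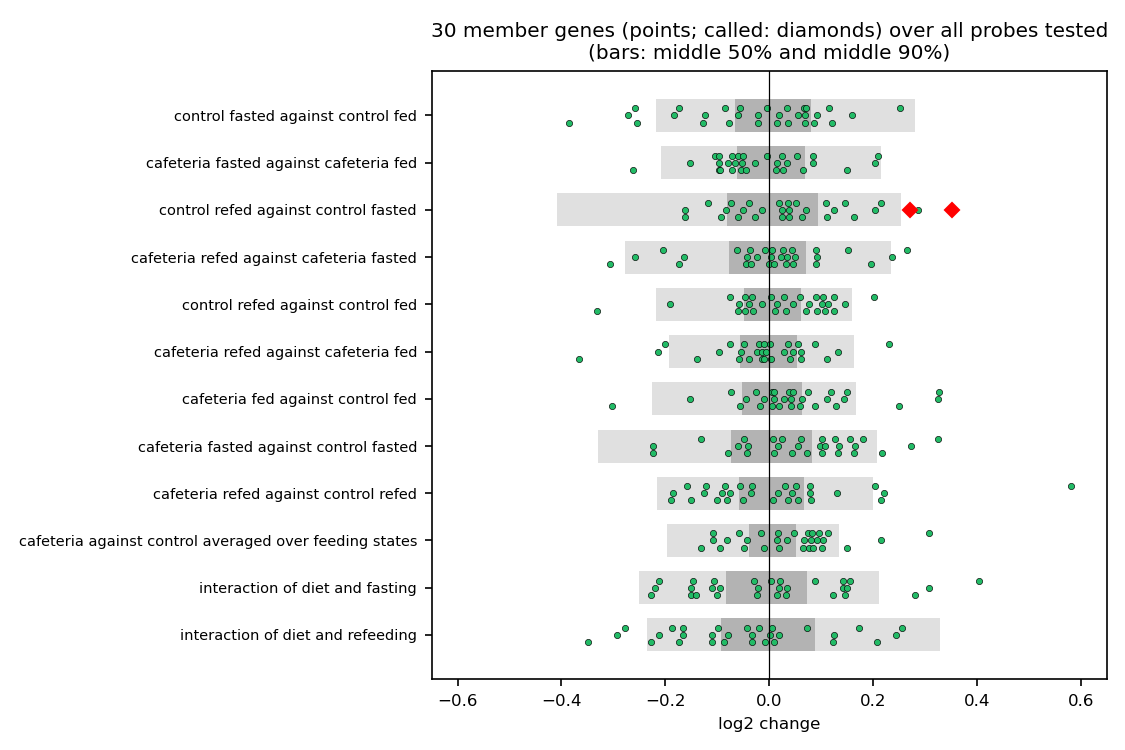
Log2 difference (horizontal axis) of the 30 member genes, as points, in each of the 12 comparisons (vertical axis), over bars that hold the middle 50% (dark) and middle 90% (light) of all 28242 probes; diamonds are called genes. Most points lie within the light bars, the 2 diamonds are those of Amacr and Acsl3 at 0.27 and 0.35 on refeeding in control rats, and the point farthest right is Acsl1 at 0.58 between diets in refed rats.

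How much the enzymes vary between rats sets what could be seen. The median within-group SD was 0.136 for the members, 0.128 for all probes and 0.157 for probes at least as bright as the members' median. The range of the 6 group means had a median of 0.220 for the members and 0.179 for all probes. By role, the end of a 95% interval farthest from 0, in any comparison of 2 groups, was taken, which joins size and precision. It lay 0.97 from 0 for the synthetases, 0.60 for the dehydrogenases, 0.71 for the later mitochondrial steps, 0.67 for electron transfer and 0.45 for the peroxisomal enzymes. Of 120 sets of a gene with several probes and a comparison, 36 held probes of opposite sign.

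Other genes of the pathway were read from further lists, each gene by its brightest probe alone. Ncor1 had 3 probes tested and Acat2, Ppargc1b and Gcdh had 2 each, and whether their other probes moved alike is not given here. Of the carnitine shuttle, which brings long chains into mitochondria, 9 of 10 genes were measured, and the gene that passed in the 12 comparisons was Cpt1a, the liver form of the rate-limiting transferase. Cpt1a was higher in cafeteria rats by 0.53 ± 0.081 when fed (adjusted p = 0.0159, limma), by 0.65 ± 0.077 when refed (adjusted p = 0.000163, limma) and by 0.48 ± 0.045 averaged over feeding states (adjusted p = 5.59e-07, limma). It fell by 0.39 ± 0.077 on refeeding in control rats (adjusted p = 0.00216, limma). Of 4 ketone body genes measured, Acat2, the cytosolic thiolase that also serves sterol synthesis, rose on refeeding in control rats (0.53 ± 0.14, adjusted p = 0.0126, limma). Of 14 further genes of acyl-CoA oxidation and peroxisomal import measured, Pex7, an import receptor, rose on refeeding in cafeteria rats (0.30 ± 0.069, adjusted p = 0.0268, limma). Pex7 was also higher in cafeteria rats averaged over feeding states (0.15 ± 0.041, adjusted p = 0.0330, limma). Of all probes, 0.00354% passed between diets in fed rats, 0.368% in refed rats and 3.91% averaged over feeding states. On refeeding, 9.01% of all probes passed in control rats and 1.32% in cafeteria rats.

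Of a list of PPARs, other nuclear receptors such as Esrra, and co-regulators, 9 of 10 genes were measured. In control rats 2 rose on refeeding, Pparg (0.56 ± 0.12, adjusted p = 0.00327, limma) and Esrra (0.31 ± 0.064, adjusted p = 0.00276, limma), and Ppard fell (-0.16 ± 0.045, adjusted p = 0.0247, limma), where 9.01% of all probes passed. In the same comparison 11 of the 12 platelet markers fell, and their part in the refeeding changes of these and the other listed genes was not tested. Averaged over feeding states 3 were lower in cafeteria rats, the co-repressors Ncor1 (-0.28 ± 0.059, adjusted p = 0.00463, limma) and Nrip1 (-0.26 ± 0.070, adjusted p = 0.0344, limma) and the co-activator Ppargc1b (-0.38 ± 0.091, adjusted p = 0.0138, limma), where 3.91% of all probes passed. Of 7 PPAR targets measured outside the oxidation set, Angptl4, an inhibitor of lipoprotein lipase, was higher in cafeteria rats (0.30 ± 0.059, adjusted p = 0.00215, limma). Of 12 genes of branched-chain and propionate breakdown, Hibch of the valine path fell on refeeding in control rats (-0.47 ± 0.090, adjusted p = 0.00194, limma) and was lower in cafeteria than in control rats when fasted (-0.49 ± 0.090, adjusted p = 0.00623, limma) and averaged over feeding states (-0.19 ± 0.053, adjusted p = 0.0389, limma). In control rats Gcdh, glutaryl-CoA dehydrogenase, rose on refeeding (0.23 ± 0.066, adjusted p = 0.0259, limma). Between diets in fasted rats, 1.13% of all probes passed.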

How the data were processed

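RNA of blood mononuclear cells of 29 rats was measured on 2-colour Agilent arrays. The authors' scanner files give, per the file headers, the intensity of each spot and its surroundings in Cy3 and Cy5, read by Feature Extraction 9.5.1.1 with rn4 positions. The authors' deposited value table, per the labels a normalized Cy5 signal, holds log2 values, since its slope on the logged scanner Cy5 signal was 0.985 to 1.02. Its column medians were 9.37 to 9.76, and how arrays were centred is not given in the sources used here.

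With R 4.3.3 and limma 3.58.1, background was corrected by normexp (offset 50), Cy5 over Cy3 log2 ratios went through loess on each array, and outlier spots (526 values) were left out. Probes well above background on at least 4 arrays entered 1 limma fit (lmFit, eBayes) of the 6 groups, with 2-sided p-values adjusted by Benjamini-Hochberg over 28242 probes per comparison and a threshold of 0.05. All arrays run the same way, with 0 dye swaps; over all probes, pairs of arrays correlated between -0.276 and 0.605. Members, the further gene lists and the 2 comparisons averaged over diets were chosen with earlier results of these data known. The text names called genes, or where under 3 passed the 3 with the smallest p, and gives every rat for called genes and for Acadm, Acadvl, Hadha, Acsl1 and Ehhadh. The older names Hadhsc, Hadh2, Mte1, Dci and Peci were matched by accession. The script was tested on simulated data. Alternatives were processed signals, median centring, Cy5 alone, the authors' table, other filters, 1 probe per gene name, slide, run, rat number and platelet covariates, and leaving out each rat. The number of arrays limits the precision.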

Additional observations from a re-analysis of the deposited data

Results flagged for a closer look

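In each gene and group, the highest or lowest rat was set against the others by Dixon's gap test at its 95% critical value, which chance passes in about 1 of 20 sets. Of 180 sets, 12 held such a rat. Control fed rat 7 stood apart in 3 of them, high for Amacr at 0.66 (next 0.27) and Acsl3 at 0.41 (next 0.054) and low for Hsd17b4 at -0.24 (next 0.0092). Control fed rat 1 was high for Eci1 at 0.14 and for Acox3 at 0.14. Cafeteria fed rat 1 was high for Etfdh at 0.48 and low for Hsd17b10 at -0.31. Cafeteria fasted rat 2 was high for Acsl3 at 0.13, against -0.13 for the next rat, and cafeteria fasted rat 5 was low for Decr1 at -0.21. The others were control fasted rat 11 for Acsl5 at -0.12, control fasted rat 5 for Scp2 at 0.46 and cafeteria refed rat 3 for Acat1 at 0.26. All values are log2 ratios of the rat to the reference pool.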

How the results depend on the processing

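The count of 2 called genes on refeeding in control rats became 0 with median centring and 1 with Cy5 alone. It was 4 of 27 measured in the authors' deposited table, 1 with the slide as a block and 1 with the run as a block. It was 0 with the platelet covariate, and 1 to 2 when 1 rat was left out. Of all probes, 9.01% passed there in the main fit, 3.26% with median centring, 9.59% with Cy5 alone and 22.0% in the authors' table. The share was 8.1% with the slide, 8.86% with the run and 0.0212% with the platelet covariate. On refeeding in cafeteria rats, leaving out 1 rat gave 0 to 1. The count of 0 between diets averaged over feeding states became 1 with Cy5 alone, 1 in the authors' table and 1 with the platelet covariate. Of all probes 3.91% passed there in the main fit, and 4.02%, 6.01% and 5.39% in these alternatives, in that order. Leaving out 1 rat gave 0 to 1 between diets. Averaged over diets, the count of 1 on fasting became 0 with median centring. There 0.0248% of all probes passed, against 3.91% in the main fit. The count of 2 on refeeding averaged over diets became 0 with median centring and 0 with the platelet covariate. Of all probes, 3.45% and 3.25% passed in these fits, against 13.2% in the main fit. Leaving out 1 rat gave 1 on fasting and 2 on refeeding. Other counts stayed within 1.5 times under these alternatives. Signs turned for Acot2 in cafeteria fasted against fed rats in the authors' table (-0.22), and with median centring for Acsl5 in control refed against fed rats (-0.019) and in cafeteria refed against control refed rats (0.076). Within extraction run 2, with 1 rat in a group each time, they turned for Decr1 in control fasted against fed rats (0.069) and for Etfb in cafeteria refed against fed (0.023) and cafeteria fed against control fed rats (-0.11), and within run 1 for Acot2 in cafeteria fasted against fed rats (-0.0019). The causes were not tested, except that 27 genes are measured in the authors' table.

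No pairing of the samples by rat number was visible in the values. The deviations of rats of the same number and feeding state correlated at -0.145 to 0.213 over 14 pairs, 2 of them over 0.1. Such correlations cannot tell whether rats of the same number were otherwise linked. With the number as a replicate block, Acsl1 differed between diets by 0.31 (adjusted p = 0.0648, limma), and 0 members were called between diets, as without it. Ehhadh and Acox3, well above background on 12 and 18 of 29 arrays, are close to the limit of what the arrays measured.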
